A study of Mus musculus with 4 samples.

Results

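SCL (TAL1) binding was examined at 7 genes of the Kruppel-like factor (KLF) family, namely Klf1, Klf2, Klf3, Klf4, Klf6, Klf7 and Klf13. A peak was attributed to one of these genes when a transcription start site (TSS) of that gene was the closest TSS of any protein-coding gene to the peak summit. This gave 32 of the 12885 peaks of the deposited list. Klf7 had 8, Klf3 and Klf13 had 7 each, Klf6 had 5, Klf4 had 4, Klf1 had 1 and Klf2 had 0.

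The peaks come from chromatin immunoprecipitation sequencing (ChIP-seq) with a rabbit SCL antiserum, 2 libraries titled as replicates, and 2 input libraries of chromatin that was not immunoprecipitated. All 4 libraries were made from wild-type J1 embryonic stem (ES) cells of C57Bl/6 X Sv129 background, differentiated for 3.5 days into embryoid bodies and selected on magnetic columns for FLK1, a receptor that marks the mesoderm from which blood and endothelium arise. These are cultured cells of 1 line, sampled at 1 stage and without an SCL-null ChIP among the libraries. Both ChIP libraries were merged before the list was called, so each value below is a pooled value without replicate error, and no test between samples could be made.

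KLF proteins are transcription factors that bind CACCC and related GC-rich elements through zinc fingers at their C-terminal end. Some members activate and others repress transcription. KLF1 is the erythroid activator of adult beta-globin, and KLF3, which lies downstream of KLF1 in red cells, is a repressor that recruits CtBP proteins. SCL is a basic helix-loop-helix protein that binds E-boxes with an E protein partner, and in blood cells it is often held with a GATA factor through LMO2 and LDB1 on a composite of CTG followed at a short distance by GATA.

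To show the DNA under the summits, the summit base of the strongest peak of each bound gene is given first with 50 bp on each side. They were read from the forward strand of mm9. Capitals mark GATA hexamers (a GATA core with A or T before it and A or G after it, on either strand), E-boxes (CANNTG), and the CTG and GATA of a composite, which is defined here as CTG followed after 7 to 9 bp by GATA on either strand. The composite can overlap a GATA hexamer or an E-box, and a match describes the letters only.

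Klf1, chr8:87425160-87425260: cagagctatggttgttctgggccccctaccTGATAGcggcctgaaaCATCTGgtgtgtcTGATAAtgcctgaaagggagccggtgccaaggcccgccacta
Klf3, chr5:64979273-64979373: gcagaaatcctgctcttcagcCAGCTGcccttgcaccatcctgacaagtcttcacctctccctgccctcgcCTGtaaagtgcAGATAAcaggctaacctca
Klf4, chr4:55676751-55676851: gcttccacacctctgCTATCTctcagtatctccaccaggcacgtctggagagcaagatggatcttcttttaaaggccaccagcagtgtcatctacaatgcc
Klf6, chr13:5768993-5769093: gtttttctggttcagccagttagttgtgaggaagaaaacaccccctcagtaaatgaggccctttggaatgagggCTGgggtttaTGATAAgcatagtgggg
Klf7, chr1:64087593-64087693: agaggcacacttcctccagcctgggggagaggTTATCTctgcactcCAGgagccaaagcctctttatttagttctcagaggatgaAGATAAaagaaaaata
Klf13, chr7:71156536-71156636: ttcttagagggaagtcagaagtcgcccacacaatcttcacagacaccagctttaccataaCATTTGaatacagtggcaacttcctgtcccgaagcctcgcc

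The strongest peaks of Klf1, Klf3, Klf6 and Klf7 each held a composite within this window, as did 32.9% of all peaks of the list. That of Klf4 held a lone GATA hexamer, and that of Klf13 held an E-box and no GATA hexamer. Each is the peak of highest fold enrichment at its gene, a measure explained below. Among all peaks with a fold of at least 10, the share with a composite was 38.3%.

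Binding strength is given as fold enrichment, which compares the ChIP fragments over a summit with the background estimated around it. Fold enrichment ranged from 5.29 to 68.6 over the 32 peaks, with a median of 10.01 (95% interval of the median 7.28 to 16.3). Over all 12885 peaks the median was 11.1 and the upper quartile 20.1. Of the 32 peaks, 15 were above the median of the list and 7 at or above its upper quartile. The pileup, the count of ChIP fragments that cover the summit, had a median of 49, against 53 over all peaks, and ranged from 26 to 441. Intervals given for the folds of single peaks come from the 95% Poisson interval of the pileup, with the background held fixed. They cover the counting error of the pileup only, and that of the background is not included. The median width was 356 bp against 397 bp, and the median GC content within 50 bp of the summit was 49.5% against 50.5%. On these measures the peaks lay near the middle of the list.

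Binding was unevenly spread over the peaks. The 4 with the highest fold, which belonged to Klf3, Klf6 and Klf7, held 39.9% of the 2798 fragments summed over all 32 summits. Only the top peaks of Klf3 and Klf7 ranked among the first 1000 of the list by fold, at rank 523 and 632.

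**Figure D1:**
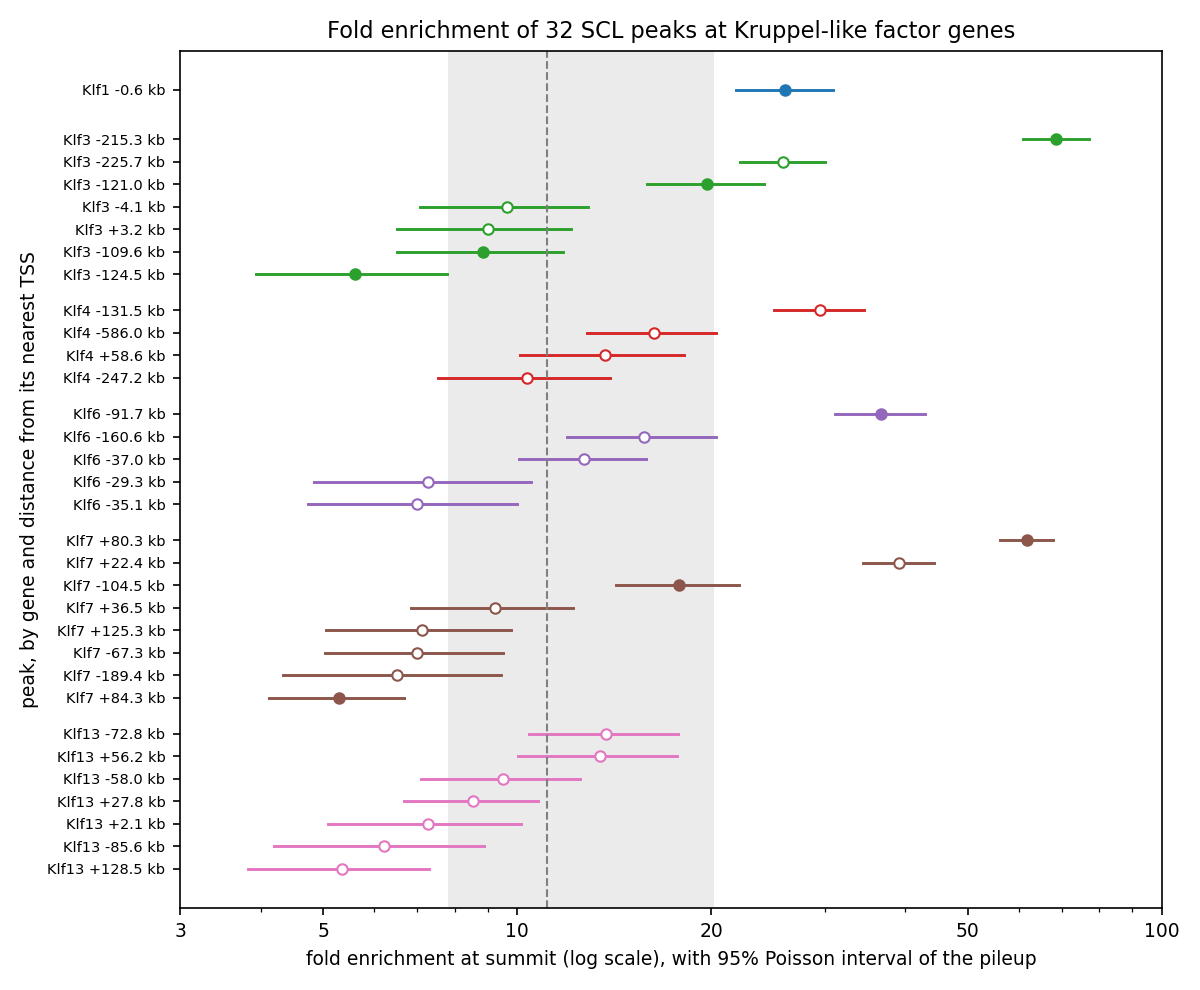
Fold enrichment on a log scale of each of the 32 peaks, by gene, with the 95% Poisson interval of its pileup as a bar; filled points hold a composite within 50 bp of the summit and open points do not, the dashed line is the median of all 12885 peaks (11.1) and the grey band their quartiles. The peak of Klf1 and the top peaks of Klf3, Klf4, Klf6 and Klf7 lie to the right of the band, while the 7 peaks of Klf13 lie between 5.35 and 13.8.

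At least 1 peak was attributed to 6 of the 7 genes, where 28.9% of 22380 protein-coding genes had one. Klf3, Klf6, Klf7 and Klf13 had 5 peaks or more, which 2.1% of protein-coding genes had. The genes were chosen with earlier results of this list known, so these shares carry no test. The count of a gene also depends on the length of genome to which its TSSs are nearest, its catchment. The median catchment of a protein-coding gene was 45.4 kb, while Klf6 had 888.3 kb, Klf4 had 696 kb, Klf7 had 382.2 kb, Klf13 had 361.6 kb and Klf3 had 295.9 kb. Per 100 kb of catchment, Klf3 had 2.37 peaks, Klf7 had 2.09 and Klf13 had 1.94, whereas Klf4 had 0.575 and Klf6 had 0.563. The density over all catchments was 0.5003 peaks per 100 kb. By this measure the numbers of peaks at Klf4 and Klf6 were close to that of the genome, and those at Klf3, Klf7 and Klf13 were above it. These counts and catchments use coding TSSs only, and with non-coding TSSs allowed the count fell to 3 at Klf7 and 0 at Klf4. The catchment of Klf1 was 7.32 kb, which held its 1 peak, and that of Klf2 was 47.9 kb.

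The peaks were mostly distal. The median distance from summit to TSS was 82.3 kb (95% interval of the median 37.0 to 124.5 kb), against 24.1 kb over all peaks. A summit lay within 1 kb of a TSS for 1 of the 32 peaks, that of Klf1, where 7.59% of all peaks did so, and within 5 kb for 4, against 20.7% of all peaks. A distance of over 100 kb was found for 13, or 40.6% (Wilson 95% interval 25.5% to 57.7%), against 18.5% of all peaks. By the annotation of protein-coding, lincRNA and processed-transcript genes, 24 summits were intergenic and 8 were in introns of the KLF gene itself, 4 of them in Klf7 and 2 each in Klf3 and Klf13. The intergenic share was 75% (57.9% to 86.7%), against 51.4% of all peaks, and the share in introns of the nearest gene 25% (13.3% to 42.1%), against 36.5%. No summit was in an exon or UTR, where 2.78% of all peaks were in an exon of the nearest gene. Under the nearest-TSS rule, the distance a summit can have also depends on the catchment. Klf3, Klf4, Klf6, Klf7 and Klf13 had catchments of 295.9 to 888.3 kb, against a median of 45.4 kb for protein-coding genes. Whether catchment length accounts for the longer distances or the larger intergenic share was not tested.

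**Figure D2:**
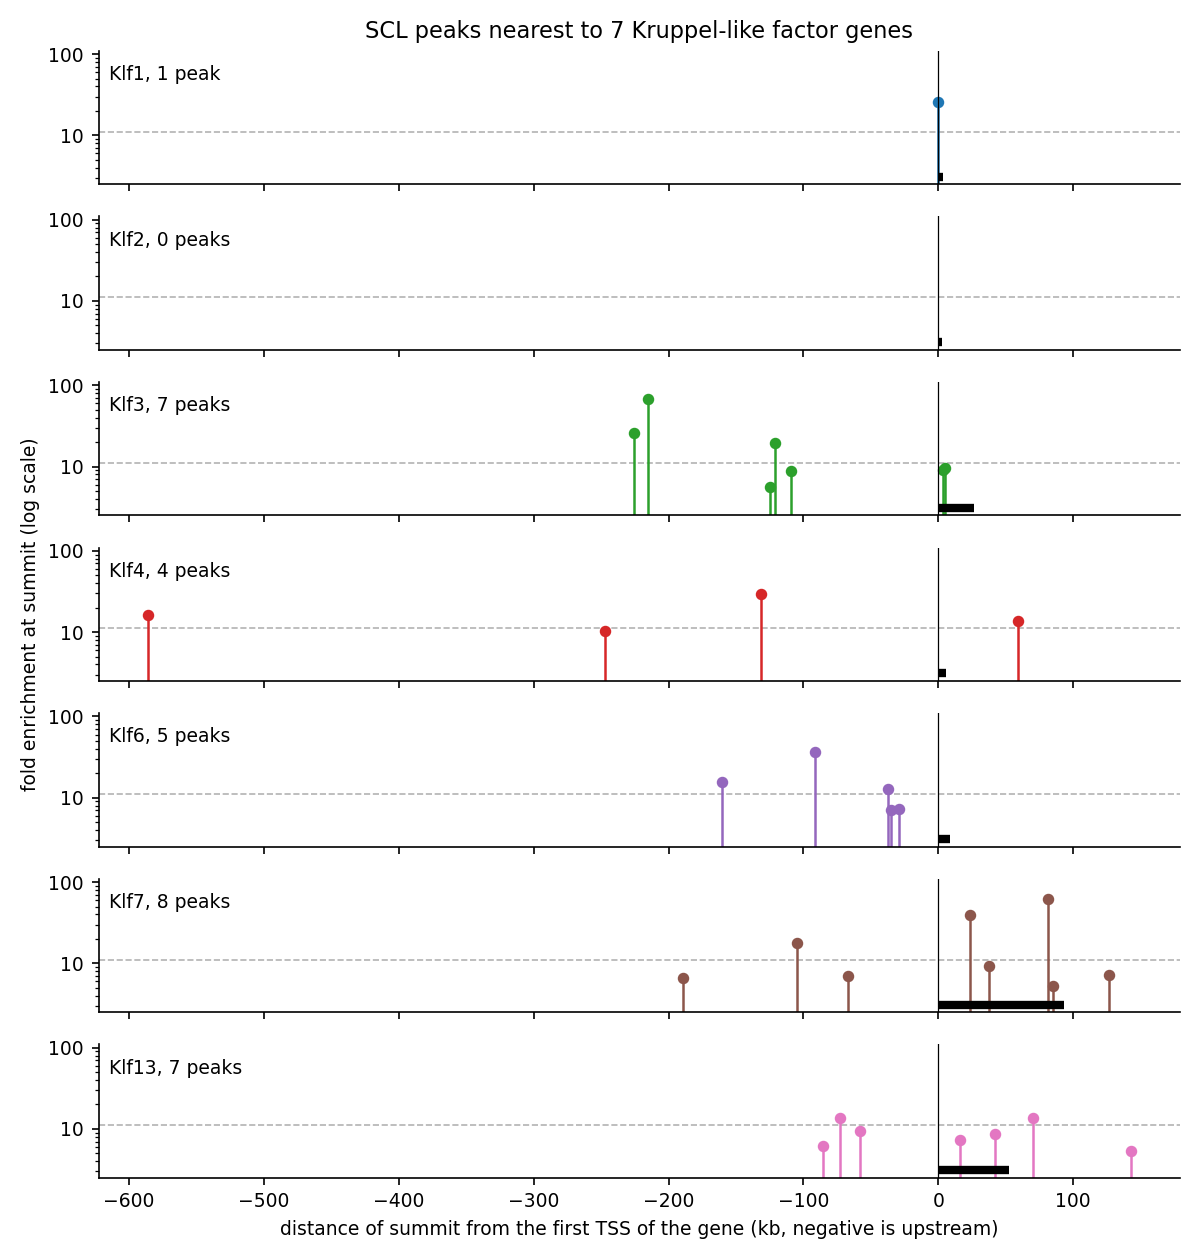
Position and fold enrichment (log scale) of the peaks of each gene, with the distance of the summit from the outermost 5′ TSS in kb and the gene body as a black bar; the dashed line is the median fold of all 12885 peaks. Peaks of Klf3 and Klf6 lie mostly upstream, those of Klf7 and Klf13 on both sides and within the gene, and Klf2 has none.

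Klf1 encodes the founding member of the family, first found in red cells. The gene lies on chromosome 8 at 87425827 to 87429194 on the forward strand. Its peak, chr8:87425070-87425353, had its summit 617 bp upstream of the TSS in intergenic sequence. The fold was 26.1 (interval 21.8 to 30.9), from 131 fragments on a background of 4.06, and ranked 2323 by fold. In the window printed above, the CTG of the composite is the second part of an E-box (CATCTG) and is followed after 8 bp by GATA, with another GATA hexamer upstream. Of the 9 composites at KLF peaks, this was the 1 whose CTG completed an E-box.

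Klf3 lies on chromosome 5 at 65194628 to 65221368. Its peaks formed 3 groups, and each of the 7 had another summit within 11.4 kb. The distal group held the strongest KLF peak, chr5:64979103-64979599, with a fold of 68.6 (60.8 to 77.1) from 279 fragments. Its summit was 215.3 kb upstream of the TSS, and the closest other protein-coding gene, Tbc1d1, was farther away at 238.1 kb. The peak beside it, chr5:64968171-64969124, was the widest of the 32 at 954 bp and had a fold of 25.9 (22.2 to 30.0). There the distances were nearly equal, 225.7 kb to Klf3 and 227.7 kb to Tbc1d1.

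The middle group of Klf3, 109.6 to 124.5 kb upstream, held chr5:65073459-65073810 with a fold of 19.7 (15.9 to 24.1), and its other peaks had folds of 8.86 and 5.61. All 3 held a composite, as did 32.9% of all peaks. The third group lay in introns. The peak at chr5:65197440-65198080, 3184 bp from a TSS, had a fold of 8.997 (6.52 to 12.1), and that at chr5:65199398-65199683, 4888 bp into the gene and 4062 bp before an internal TSS, had a fold of 9.64 (7.06 to 12.9). Neither held a composite wholly within 50 bp. The peak 3184 bp from a TSS had one that began 49 bp from its summit and ran past that limit.

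Klf4 encodes a factor of ES cell self-renewal and reprogramming. It lies on chromosome 4 at 55540013 to 55545347, on the reverse strand, in a region with few coding genes. Its strongest peak, chr4:55676479-55676990, was 131.5 kb upstream with a fold of 29.5 (25 to 34.5). The peak at chr4:56131120-56131782 had a fold of 16.3 (12.9 to 20.4) and was 586 kb from the gene, the farthest of the 32. At chr4:55792430-55792734, 247.2 kb upstream, the fold was 10.4 (7.55 to 13.9). A peak 58.6 kb downstream of a TSS, chr4:55485865-55486245, had a fold of 13.7 (10.1 to 18.2).

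None of the 4 peaks of Klf4 held a composite, and 1 held a GATA hexamer wholly within 50 bp of the summit. The peaks at 586 kb and 58.6 kb had a hexamer that began 48 and 49 bp from the summit and ran past that limit. Each was closer to the TSS of a non-coding gene than to Klf4 when lincRNA and processed-transcript genes were allowed. The attribution of these peaks to Klf4 rests on the use of coding genes alone.

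Klf6 encodes a widely expressed activator that is needed for yolk sac haematopoiesis. The gene is on chromosome 13 at 5860735 to 5869639, and all 5 of its peaks were upstream in intergenic sequence. The strongest, chr13:5768879-5769214, had a fold of 36.7 (31.1 to 42.9) at 91.7 kb. The most distal, chr13:5700009-5700332, was 160.6 kb away with a fold of 15.7 (11.96 to 20.4). The others lay close together at 29.3 to 37.0 kb. Of these chr13:5823580-5823990 had a fold of 12.7 (10.1 to 15.8), chr13:5831182-5831513 had 7.27 (4.84 to 10.5) and chr13:5825476-5825740 had 6.998 (4.73 to 10.01). Each of the 5 peaks of Klf6 held a GATA hexamer, and the strongest was the only one with a composite. The next coding gene, Pitrm1, was at least 716 kb from every summit.

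Klf7 encodes a factor best known from developing neurons. It is the longest of the 7 genes, on chromosome 1 at 64076021 to 64168856 on the reverse strand. The peak with most fragments, chr1:64087313-64088047, was in an intron 80.3 kb from a TSS and had a fold of 61.7 (56.1 to 67.7) from 441 fragments. Another intronic peak, chr1:64145399-64145758, at 22.4 kb, had a fold of 39.1 (34.4 to 44.3). The upstream peak chr1:64273202-64273615, at 104.5 kb, had a fold of 17.8 (14.2 to 22.1). Next came chr1:64131355-64131607 in an intron, with 9.24 (6.84 to 12.2), and chr1:64042517-64042763 beyond the gene, with 7.13 (5.05 to 9.79). The other 3 peaks had folds of 5.29 to 6.998. Klf7 therefore had 3 peaks well above the median of the list and 5 below it. Attribution to Klf7 rests on the use of coding genes for 5 of the 8, including both of the strongest, which lay 11606 and 20352 bp from the TSS of the non-coding genes Gm17427 and Gm13748. With non-coding TSSs allowed, Klf7 kept 3 peaks, all upstream, with a highest fold of 17.8.

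The intronic Klf7 peak at 22.4 kb was the strongest KLF peak without a composite. Its window is shown because it held neither composite nor GATA hexamer, and only an E-box, within 50 bp. The nearest hexamer began 51 bp from the summit, just outside.

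Klf7, chr1:64145530-64145630: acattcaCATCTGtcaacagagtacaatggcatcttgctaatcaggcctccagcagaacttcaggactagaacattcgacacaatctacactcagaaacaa

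Klf13 encodes a factor first described in T cells that also acts in red cells and the heart. It lies on chromosome 7 at 71031237 to 71083801 on the reverse strand, with peaks on both sides. The strongest were chr7:71156456-71156798, 72.8 kb upstream with a fold of 13.8 (10.4 to 17.8), and chr7:71013230-71013753, 56.2 kb from a TSS on the far side with a fold of 13.5 (10.03 to 17.7). Their intervals overlapped almost wholly. At chr7:71141366-71141937 the fold was 9.51 (7.09 to 12.52). The intronic peaks chr7:71041799-71042037 and chr7:71067508-71067828 had folds of 8.55 (6.68 to 10.8) and 7.28 (5.08 to 10.1), and the latter was 2105 bp from an internal TSS and the closest of the 7. The remaining peaks had folds of 6.21 and 5.35. With 7 peaks and none with a composite within 50 bp, Klf13 had as many peaks as Klf3, of which 4 had a composite. Over all peaks the share was 32.9%. The counts depend on the window at both genes. The strongest Klf13 peak had a composite 52 bp from its summit, just outside. The Klf3 peak 3184 bp from a TSS had one that began 49 bp from its summit and crossed the edge. Windows of 100 bp on each side held both, so each gene gained a composite and the contrast remained.

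Klf2 encodes a factor of endothelium under flow that is also needed in primitive red cells. It lies on chromosome 8 at 74842932 to 74845555, and no summit had it as the nearest coding gene. There were 3 summits within 100 kb of its TSS, 41.6 to 50.6 kb upstream, all attributed to Ap1m1. They included chr8:74792141-74792957, with a fold of 163.2 from 1445 fragments, above that of any peak attributed to the 7 genes. This peak was chosen for naming after its values were seen. Its summit was 50.6 kb from the TSS of Klf2 and 15.5 kb from that of Ap1m1. The other summits had folds of 12.2 and 10.3. A peak list does not show which gene a bound site acts on, and the absence of peaks at Klf2 holds for the nearest-TSS rule.

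The window of that peak is given for comparison. It held a GATA hexamer, with no E-box or composite.

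Ap1m1, chr8:74792319-74792419: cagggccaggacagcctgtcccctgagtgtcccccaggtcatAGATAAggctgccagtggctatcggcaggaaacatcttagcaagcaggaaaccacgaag

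Klf1 lies on the same chromosome among other bound genes. Within 250 kb of its TSS were 9 summits. The nearest on either side were 54.1 kb upstream, attributed to Calr with a fold of 17.6, and 64.9 kb downstream, 16 bp from a TSS of Rnaseh2a with a fold of 21.1. The deepest, with a fold of 293.9, was 200.3 kb upstream at Lyl1, which encodes a close relative of SCL. The local background of the Klf1 peak, 4.06, was the lowest of these 9, which reached 9.96 at Calr.

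**Figure D3:**
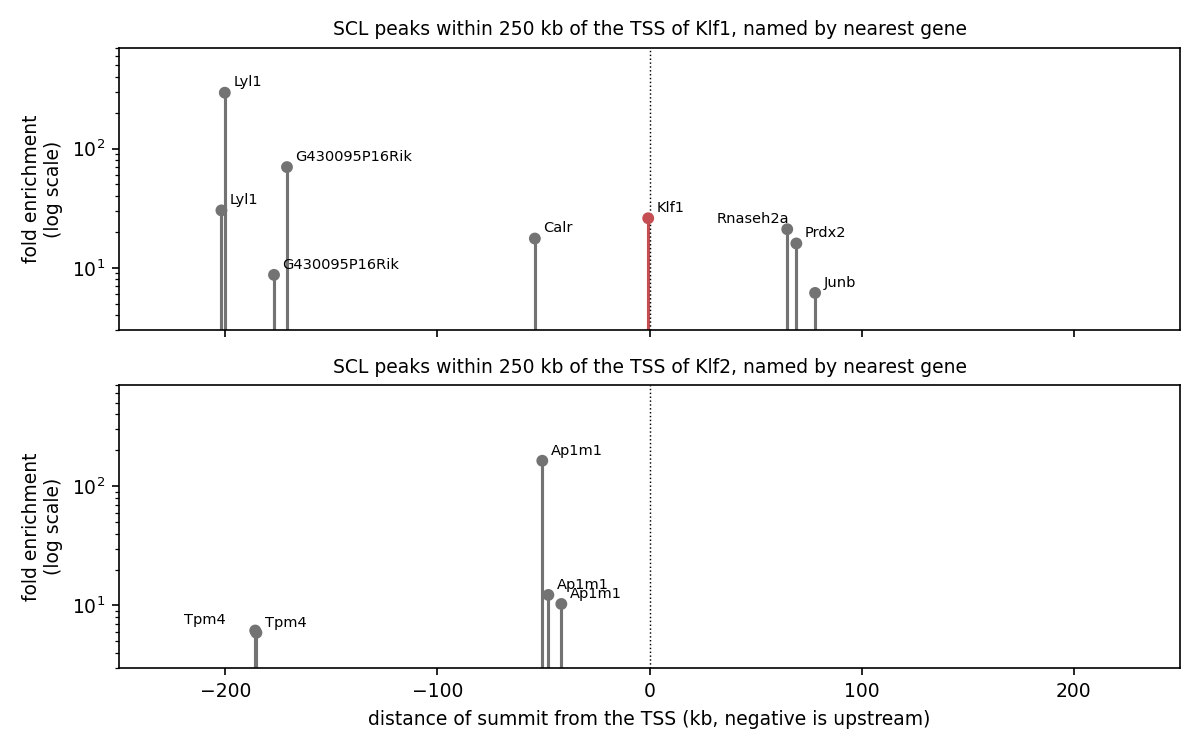
Fold enrichment (log scale) of all SCL peaks within 250 kb of the TSS of Klf1 and of Klf2, by distance in kb from the TSS in the direction of transcription, each named by its nearest coding gene; red marks peaks attributed to the KLF gene. Klf1 has 1 peak close to its TSS, and the closest to Klf2 are those of Ap1m1 at 41.6 to 50.6 kb upstream.

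Motifs were counted where they lay wholly within 50 bp of a summit. A GATA hexamer was found at 22 of the 32 peaks, or 68.8% (Wilson 95% interval 51.4% to 82.0%), where 73.2% of all peaks had one. An E-box was found at 20, or 62.5% (45.3% to 77.1%), against 52.6%. The composite was found at 9, or 28.1% (15.6% to 45.4%), against 32.9%. The CACCC element (either strand), to which KLF proteins themselves can bind, was found at 9, or 28.1% (15.6% to 45.4%), against 23.9%. At this window each share over all peaks lay within the interval of the KLF peaks. With windows of 100 bp on each side this still held for the GATA hexamer, the E-box and the composite, but CACCC was in 20 of the 32, or 62.5% (45.3% to 77.1%), against 43.0% of all peaks, which lay below the interval. The excess of CACCC therefore depended on the window, and it carries no test. In windows 1 kb away on both sides of all summits, 17.8% had a GATA hexamer, 42.4% an E-box, 3.07% a composite and 19.5% CACCC.

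**Figure D4:**
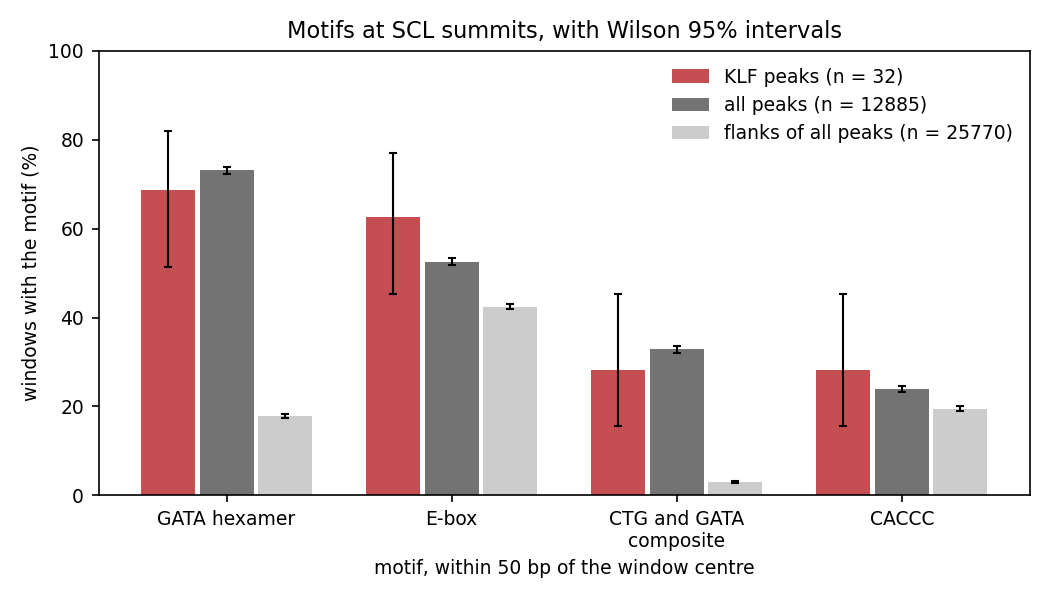
Share of windows with each motif, in per cent with Wilson 95% intervals, for the 32 KLF peaks, all 12885 peaks and windows 1 kb to either side of all summits. Over all peaks each of the 4 motifs is more frequent at summits than in flanks, with intervals that do not overlap, and the KLF peaks and all peaks have overlapping intervals for all 4 motifs.

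Every one of the 32 windows held a GATA hexamer or an E-box, as did 87.9% of all peaks. Both were present in 10, against 37.8% of all peaks, and only the hexamer in 12, against 35.3%. Only the E-box was present in 10, or 31.2% (18.0% to 48.6%), against 14.8% of all peaks. In 3 of these 10, the Klf4 peaks at 586 kb and 58.6 kb and the Klf13 peak at 56.2 kb, a GATA hexamer began 48 or 49 bp from the summit and crossed the edge of the window. With windows of 100 bp on each side, 30 peaks held a GATA hexamer, 93.8%, against 84.6% of all peaks. The peaks without one were the Klf4 peak 247.2 kb upstream and the intronic Klf7 peak at 36.5 kb, and neither had one within 250 bp. Where there was one, the median distance from summit to the nearest hexamer was 29 bp.

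The 9 composites are shown on the strand that reads CTG before GATA, with CTG and GATA in capitals and 3 bp on each side, since they share the element but differ widely in binding.

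Klf1, chr8:87425206-87425226, fold 26.1: catCTGgtgtgtctGATAatg
Klf3, chr5:64979341-64979362, fold 68.6: cgcCTGtaaagtgcaGATAaca
Klf3, chr5:65070121-65070140, fold 5.61: agaCTGtatatcaGATAgtt
Klf3, chr5:65073624-65073644, fold 19.7: ctgCTGacctcggaGATAagg
Klf3, chr5:65085020-65085041, fold 8.86: gagCTGgtcaagtctGATAgga
Klf6, chr13:5769064-5769084, fold 36.7: gggCTGgggtttatGATAagc
Klf7, chr1:64273338-64273359, fold 17.8: tctCTGcaaggcaagGATAgat
Klf7, chr1:64087623-64087644, fold 61.7: ctcCTGgagtgcagaGATAacc
Klf7, chr1:64083690-64083710, fold 5.29: tcgCTGtagcttgaGATAgct

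The spacing was 9 bp in 4 of them, 8 bp in 4 and 7 bp in 1. Over all peaks a composite with spacing of 9 bp was in 18.3%, with 8 bp in 12.3% and with 7 bp in 3.60%. GATA was part of a hexamer in 8 of the 9. Composites read on the forward strand of mm9 except those of the Klf3 peak with a fold of 19.7 and the Klf7 peaks with folds of 17.8 and 61.7. The 9 peaks with a composite had a median fold of 19.7 and the 23 without had 9.51. Over all peaks the medians were 13.3 and 10.3. The groups at KLF genes overlapped, from 5.29 upward with a composite and up to 39.1 without.

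**Figure D5:**
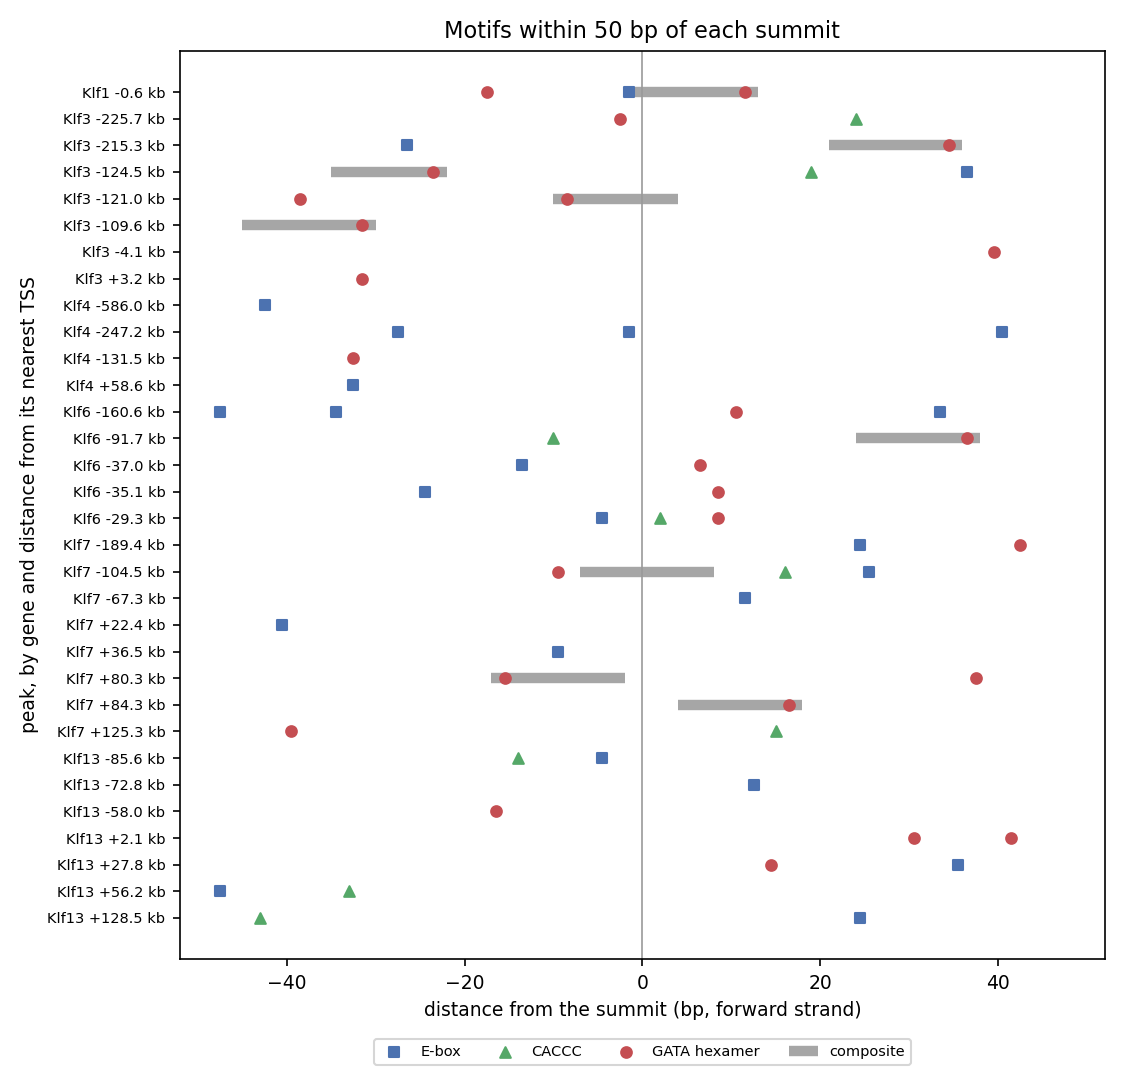
Position of each motif relative to the summit in bp, on the forward strand, in the 32 KLF peaks; grey bars span composites. GATA hexamers lie on both sides of the summit, and the composites of Klf1, Klf3 at 121.0 kb and Klf7 at 104.5 kb span it.

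The other KLF genes and the related SP genes, which encode proteins with the same kind of zinc fingers, were counted by the same rule. Of 20 symbols 19 were matched, and 11 of these genes had a peak, with 26 peaks in all. Of all protein-coding genes, 28.9% had one. The most were at Klf10, a TGF-beta responsive repressor, with 6 peaks of fold up to 36.2, and at Sp4, with 6 of fold up to 12.4. Klf12 had 3, and Klf5, Klf14 and Sp6 had 2 each. Klf8, Klf11, Klf15, Sp3 and Sp8 had 1 each. None was nearest to Klf9, Klf16, Klf17, Sp1, Sp2, Sp5, Sp7 or Sp9. The median fold of the 26 peaks was 10.3, against 10.01 for the 32. A composite was in 5 of the 26, or 19.2%, against 32.9% of all peaks. Both peaks of Klf5 had one.

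For scale, 10 genes of the SCL complex and of blood or endothelial fate were counted likewise, and each had a peak. Kdr, which encodes FLK1, had 10 peaks with a highest fold of 182.8, Runx1 had 16 with 298, and Gata1 had 4 with 142.7. The highest fold at a KLF gene, 68.6 at Klf3, was above those of Ldb1 and Gata2, 34.3 and 41.8, and below those of the other 8. Expression was not measured in these libraries, so the FLK1+ identity of the cells rests on the label.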

How the data were processed

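The data are 2 SCL ChIP-seq and 2 input libraries of day 3.5 FLK1+ cells, grouped by their titles. The authors aligned paired-end reads to mm9 with Bowtie 1.1.2, removed duplicates and called peaks on the merged libraries with MACS2 2.0.10 and the irreproducible discovery rate (versions from the submitters' processing notes). The deposited fold enrichment is a ratio computed by the authors. Beside it the list holds −log10 p and −log10 q values computed by the authors, and a deposited score that restates the −log10 p and was not used. Depth per library is not given in the list. The list holds more peaks than the study counts as bound loci, the methods name a filter in a genome viewer without its criteria, and the whole list was used, so its counts, medians and shares include peaks outside that set.

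The whole pileup and the local background were solved from the fold and −log10 p of each peak, with a mismatch under 0.001 in 99.9% of peaks. The genome NCBIM37 (the mm9 build) and GENCODE vM1 gave sequence, 22380 protein-coding genes and their TSSs. Coordinates count from 1. Scripts ran in Python 3.11.15 with scipy 1.17.1, and the solver, the TSS rule and the composite scan were tested on simulated data. Intervals are exact Poisson for pileups, Wilson for shares and order-statistic for medians. Peaks of 1 pooled list are not replicates, so nothing was tested. Alternatives changed thresholds, TSSs, attribution, windows and spacing. Every peak was described for genes with 5 or fewer, and otherwise the 5 of highest fold and the one closest to a TSS. The genes, lists and motifs were chosen with earlier results of these data known.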

Additional observations from a re-analysis of the deposited data

How the results depend on the processing

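No paired analysis was possible because both ChIP libraries were merged before peaks were called. Leaving out a replicate could not be done for that reason. The number of peaks depended most on how they were attributed and on the threshold. It was 9 when peaks had to lie in the gene or within 10 kb of it, 12 with a −log10 q of at least 50, 16 with a fold of at least 10 and 19 within 100 kb of the TSS. The stricter lists also raised the median fold, to 25.97 for the −log10 q threshold and 18.8 for the fold threshold, and the median pileup, to 141.5 and 86, as they keep stronger peaks. At a −log10 q of at least 50 the share with a GATA hexamer was 83.3% and with a composite 50%, against 79.8% and 39.4% of all peaks at that threshold. In or within 10 kb of the gene, the median width was 296 bp, CACCC was in 0% and an E-box in 44.4% of 9 peaks. Windows of 100 bp on each side gave CACCC in 62.5% and a GATA hexamer in 93.8%, against 43.0% and 84.6% of all peaks. Allowing non-coding TSSs left 23 peaks, with 0 for Klf4 and 3 for Klf7. Of 109 alternative values, 75 stayed within 1.5 times the count or within the interval, and 36 of these equalled the value as reported. The 16 peaks with a fold under 10 rest on 26 to 69 fragments, which limits the precision of each.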

Other observations

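The order of peaks by fold and by fragments differed at several genes, such as Klf6, Klf7 and Klf13. At Klf13 the intronic peak with a fold of 8.55 had 69 fragments, the most of any Klf13 peak. At Klf6 the peak with a fold of 12.7 had 77, more than the 56 of the peak with a fold of 15.7. The intronic Klf7 peak 84.3 kb from a TSS, chr1:64083557-64083852, had the lowest fold of the 32, 5.29. It had 68 fragments, more than either of the Klf13 peaks of highest fold, with 56 and 49. Its local background of 12.1 was the highest of the 32, and it lay 3954 bp from the strongest Klf7 peak. It ranked 12601 by fold and 8326 by −log10 p. Fold compares the fragments with the local background, so the same fragments give a lower fold on a higher background. Why the background was higher at this peak was not tested.

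At Klf3, all 3 peaks of the group 109.6 to 124.5 kb upstream held a composite, and their folds spanned 5.61 to 19.7. A composite was in 28.1% of the 32 peaks and in 32.9% of all peaks, and the count for this small group carries no test. The median distance from a summit to the next summit of any gene was 14.5 kb over the 32 peaks (95% interval of the median 10.4 to 41.1 kb), and the median over all peaks, 27.2 kb, lay within that interval.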
